A study of Homo sapiens with 4 samples.

Results

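The baseline transcriptome of wild-type MHCC97H cells was described from the 2 wild-type libraries of a series of 4, and all 39306 gene names listed in both were considered. MHCC97H is an established human hepatocellular carcinoma line that is widely used as a model of metastatic liver cancer. Total RNA was depleted of ribosomal RNA and sequenced, a procedure that keeps RNAs without a poly(A) tail. The sample labels give these cells as the cell line, wild type for HNRNPM, and name no agent or control hairpin. In the deposited values the same libraries carry the name NC, which the labels do not explain, so whether they received a control construct is not known here. The other 2 libraries, from cells in which HNRNPM was knocked down, were not compared here. HNRNPM, the splicing regulator the series targets, stood at 51.3 and 51.6 RPKM in the wild-type cells.

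Levels are in RPKM, which divides the reads of a gene by its exon length and by the assigned reads of the library, and a pair of values gives wild type replicates 1 and 2 in that order. The assigned reads recovered from the values were 18317579 and 19659106. These totals are sums over names, and a read can stand under several names. Shares of reads below are therefore shares of such assignments. The labels do not say whether the replicates were separate cultures, so their spread may be technical. Gene positions are the outer ends of the exons in the tables, on GRCh38.

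Hepatocytes are the secretory and metabolic cells of the liver. They are specified by a small network of transcription factors, among them HNF4A, FOXA2 and CEBPA, and release albumin, apolipoproteins and clotting factors into the blood. Liver cancers can keep part of this programme, return to genes of the fetal liver such as AFP and H19, or take on genes of mesenchymal cells that favour migration.

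A pair of rows of the signal recognition particle RNA, a structural RNA of protein export, led all names. RN7SL2 stood at 77362 and 62102 RPKM and RN7SL1 at 58408 and 46728 RPKM. They are near-identical copies, and their separate levels are uncertain for that reason. Both rows were lower in replicate 2 by the same log2 difference of -0.32.

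Nuclear protein-coding genes took 78.4% and 79.0% of reads. Small structural RNAs took 8.23% and 7.01%, and the 37 mitochondrial genes took 4.91% and 5.36%. Names without a class in the annotations used took 4.31% in each library, long non-coding and other RNAs 2.58% and 2.77%, and pseudogenes 1.59% and 1.57%. After the signal recognition particle RNAs, RN7SK, a regulator of transcription elongation, stood at 37150.4 and 37093 RPKM. RMRP, the RNA of a nuclear and mitochondrial RNase, followed at 14478 and 12519. The 12 highest non-coding rows also held the spliceosomal RNAs RNVU1-7, RNU1-1 and RNU2-2P, the signal recognition particle copies RN7SL5P and RN7SL4P, the nucleolar RNA SNORD3D, RPPH1 of RNase P, and MIR3609. Among mitochondrial genes, MT-ATP6 was highest at 7133 and 8743 RPKM, ahead of MT-CO2 at 6623 and 7144 and MT-ND4 at 6275 and 7019. The mitochondrial ribosomal RNA MT-RNR2, at 255 and 340.0, lay below these messages in libraries depleted of ribosomal RNA.

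**Figure D1:**
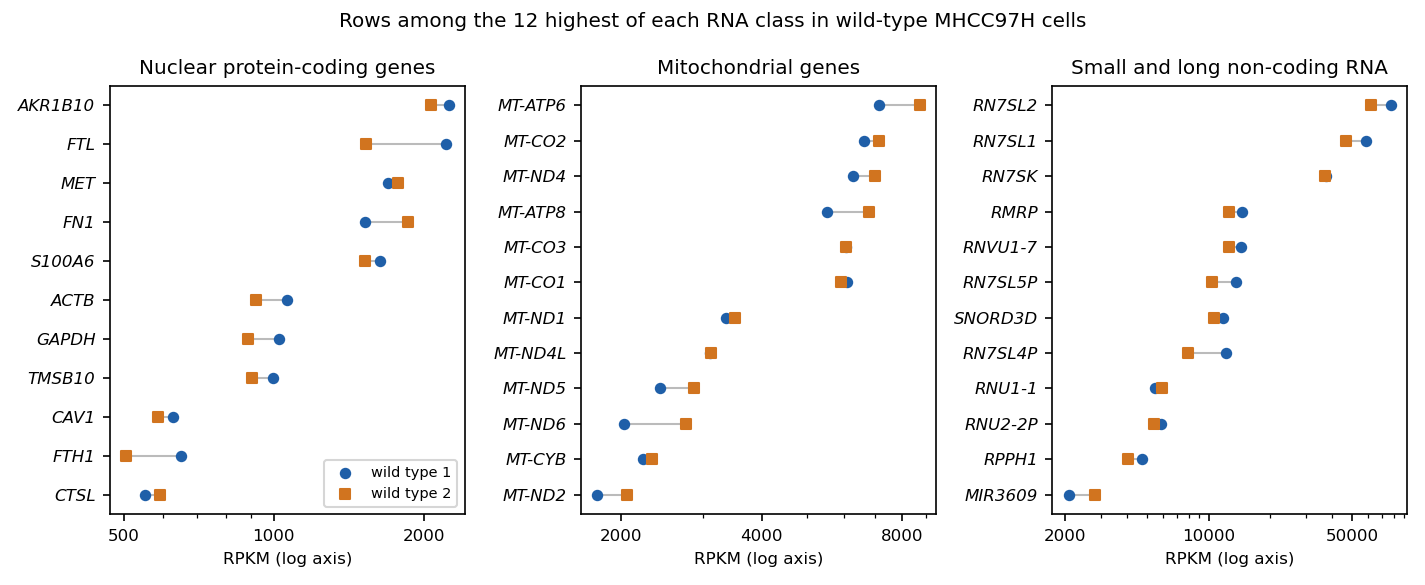
RPKM (log axis) of rows among the 12 highest of each RNA class, with circles for wild type 1, squares for wild type 2 and a line joining them. AKR1B10 leads the protein-coding genes in both libraries, and the next 4 genes change order between them.

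The protein-coding message with the highest level was AKR1B10, an aldo-keto reductase that detoxifies aldehydes and is often raised in liver cancer. It stood at 2156 ± 123 RPKM (SD, n = 2), with 2243 and 2069 in the 2 libraries, and lies at chr7:134527592-134541408. FTL, the light chain of the iron store ferritin, stood at 2216 and 1530.1 RPKM. MET, the receptor for hepatocyte growth factor, stood at 1695 and 1776. AKR1B10 was first in both libraries, whereas FTL, MET, FN1 and S100A6 did not keep the same order between them. Of these, MET was above S100A6 in both libraries without overlap. The ranges of all other pairs among them overlapped.

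FN1, which encodes the matrix glycoprotein fibronectin, stood at 1526 and 1862 RPKM and, being long, took the largest single share of reads, 2.64% and 3.22%. MET took 1.19% and 1.25%. S100A6, a calcium-binding protein, stood at 1631 and 1527 RPKM. The common reference genes ACTB, at 1065 and 919, and GAPDH, at 1022 and 887, came below all of these. TMSB10, an actin-sequestering peptide, CAV1, the main protein of caveolae, FTH1, the ferritin heavy chain, and CTSL, a lysosomal protease, were also among the 12 highest, with CAV1 at 627 and 586. Several of these genes, such as FTL, FTH1, GAPDH, ACTB and TMSB10, have processed copies elsewhere in the genome, and AKR1B10 has close paralogs, so counting may have split their reads.

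A level of at least 1 RPKM in both libraries was reached by 16324 names, 10898 of them protein-coding. A mean of at least 1 RPKM was reached by 17147 names (43.6%) and by 11052 of the 17010 protein-coding names (65.0%, median 2.66 RPKM). These shares are the measure beside each gene list. A mean of 100 RPKM or more was reached by 190 protein-coding names. Reads were concentrated: 636 and 629 names held 50% of reads, and the 10 names with most reads held 12.7% and 13%. These were few next to the 39306 names.

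**Figure D2:**
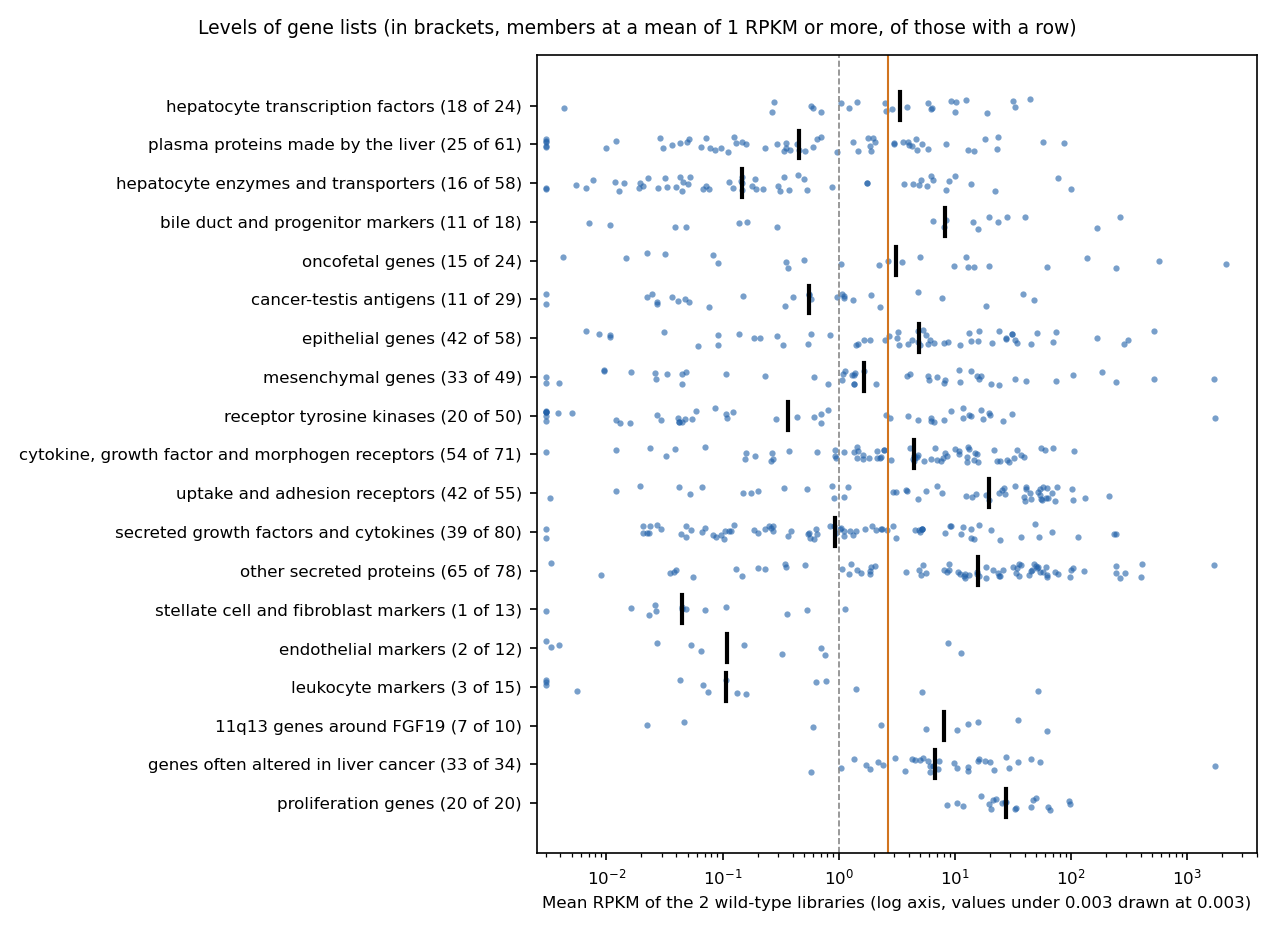
Mean RPKM of the 2 libraries (log axis) for the members of 19 gene lists. Each point is a gene, black bars are list medians, the dashed line is 1 RPKM and the orange line is the median of all protein-coding names, 2.66 RPKM. Hepatocyte transcription factors lie above that line in the median, and plasma proteins and hepatocyte enzymes below it.

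The transcription factors of hepatocytes were present at moderate levels, while most listed products of mature hepatocytes were low. Of 24 factors with a row, 18 (75%) reached a mean of 1 RPKM, a share to set beside the 65.0% of all protein-coding names, with a median of 3.38 RPKM. The highest were the C/EBP family members CEBPB, at 46.2 and 43.4, and CEBPA, at 36.5 and 29.6 RPKM. ATF5, a stress-responsive factor rich in liver, followed at 31.4 and 31.6, and CREB3L3, a factor of hepatic lipid genes, at 16.4 and 21.5. RXRA, the partner of many nuclear receptors, stood at 12.6 and 12.3.

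The other defining factors stood below CEBPA. FOXA2 stood at 10.8 and 9.32 RPKM and HNF4A at 6.51 and 6.31. HHEX, needed for the liver bud, stood at 10.1 and 8.54. The bile acid receptor NR1H4 stood at 3.74 and 4.03 and the fatty acid sensor PPARA at 2.95 and 2.79. Factors under 1 RPKM included NR1I3, ONECUT2, NR5A2, PROX1 and ONECUT1. In bulk RNA, fewer cells with a message and less message per cell cannot be told apart.

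Of 61 plasma proteins made by the liver, 25 (41.0%) reached 1 RPKM, below the 65.0% of all protein-coding names, and the median was 0.454 RPKM. Ceruloplasmin (CP), the copper-carrying ferroxidase, led at 76.5 and 96.2. ITIH2, a hyaluronan-binding inhibitor chain, followed at 51.7 and 64.2. The apolipoproteins APOC1 and APOH stood at 22.4 and 24.5 and at 18.9 and 17.4. AMBP, the precursor of a plasma protease inhibitor, stood at 15.4 and 13.7. Replicate 2 was the higher library for CP, ITIH2 and APOC1 and the lower one for APOH and AMBP.

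Albumin, the main product of hepatocytes, was a minor message here. ALB, at chr4:73397114-73421412, stood at 5.35 and 6.28 RPKM, close to HNF4A and far below KRT8, KRT18, KRT19 and KRT20. Transthyretin (TTR) stood at 0.251 and 0.445 and APOA1, the main protein of high-density lipoprotein, at 0.307 and 0.286. Counting intervals at the 95% level (exact Poisson, counting error only) were 4.79 to 5.96 and 5.69 to 6.91 RPKM for ALB and 0.120 to 0.462 and 0.268 to 0.695 RPKM for TTR, so the ALB intervals lie above those of TTR. APOB, the scaffold of low-density lipoprotein, stood at 2.09 and 1.63 and SERPINA1, antitrypsin, at 4.47 and 3.60.

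The 3 fibrinogen chains were unequal. FGB stood at 3.71 and 4.19 RPKM, FGA at 1.85 and 1.71 and FGG at 0.698 and 0.721. FGB was the highest of the 3 in both libraries. Prothrombin (F2) stood at 4.37 and 4.25 and factor V (F5) at 3.30 and 3.78, whereas antithrombin (SERPINC1) and plasminogen (PLG) had no read in replicate 1 and 2 and 3 in replicate 2. APOA2, APOC3, SERPINA7, F13B and SAA2 had 0 reads in both libraries, which allows up to 3 reads, or 0.0556 RPKM for SERPINA7 in replicate 2 and 0.189 RPKM for APOC3 in replicate 1, the lowest and highest such limits of the 5.

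The listed hepatocyte enzymes and transporters were lower still. Of 58, 16 (27.6%) reached 1 RPKM, below the 65.0% of all protein-coding names. The median was 0.147 RPKM, and 24 lay under 0.1 RPKM. Within the list, the exceptions at the top were ABCC2, which exports conjugated bilirubin and drugs, at 100.5 and 101, and UGT1A1, the bilirubin-conjugating enzyme, at 70.1 and 83.5. CES1, a carboxylesterase of liver outside the list and picked out after values were seen, stood higher, at 395 and 399. UGT1A1 shares its last exons with the other genes of its cluster, and UGT1A10 had almost the same number of reads (5765 and 7342, against 5735 and 7335), so the row cannot be assigned to UGT1A1 alone. CYP27A1, a mitochondrial enzyme of bile acid synthesis, stood at 21.7 and 22.4.

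Urea cycle and drug-metabolising genes were split. ASL of the urea cycle stood at 14 and 13.5 RPKM and ASS1 at 4.28 and 4.47, whereas CPS1, the first step of that cycle, stood at 0.0157 and 0.00974, from 3 and 2 reads, and ARG1, the last step, at 0.139 and 0.155. GLUL, glutamine synthetase, stood at 9.40 and 10.7. CYP3A5 stood at 5.40 and 7.17 and CYP2B6 at 5.66 and 4.56, while CYP3A4, the main drug-metabolising cytochrome of adult liver, stood at 0.156 and 0.130 and CYP2E1 at 0.00567 and 0.00529. The tyrosine breakdown enzymes HGD, HPD and FAH stood at 8.64 and 9.21, at 9.09 and 7.83 and at 5.23 and 4.65. CYP7A1, the rate-limiting enzyme of bile acid synthesis, and SULT2A1 had 0 reads in both libraries, allowing up to 0.0555 and 0.0824 RPKM in replicate 1. Markers of the labelled origin were thus split. ALB, APOB, SERPINA1, CP, APOH and AMBP were above 1 RPKM, while TTR, APOA1, ASGR1, CPS1 and CYP3A4 were under 1 RPKM. CP, APOH and AMBP were among the highest of the 61 plasma proteins, of which 36 lay under 1 RPKM. Of hepatocyte transcription factors 18 of 24 (75%) reached 1 RPKM, a share to set beside the 65.0% of all protein-coding names.

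For most steps with a liver form and a widely expressed or fetal form, the message of the other form was higher. This held in both libraries for 15 of the 17 pairs with both rows, which include N-cadherin against E-cadherin, described with the epithelial genes. Pyruvate kinase M (PKM) stood at 316 and 316 RPKM and the liver form PKLR at 0.167 and 0.0583. The gap between these forms was far larger than that between the libraries.

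The glucose transporter SLC2A1 of most dividing cells stood at 37.5 and 43.7 RPKM and SLC2A2 of hepatocytes at 0.0799 and 0. For glycogen, PYGB, the brain form of the phosphorylase, stood at 153 and 150.3 and the liver form PYGL at 8.92 and 8.51, and GYS1 at 20.3 and 21.6 against GYS2 at 0.0174 and 0.0487. For methionine activation, MAT2A stood at 44.7 and 42.9 and the liver form MAT1A at 0.0148 and 0.0138. Smaller gaps in the same direction were seen for phosphofructokinase (PFKP at 46.4 and 47.5, PFKL at 8.72 and 9.11) and long-chain acyl-CoA synthetase (ACSL4 at 11 and 11, ACSL1 at 4.51 and 4.55).

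Arginase and alanine transaminase followed the same order, with ARG2 at 2.89 and 2.15 RPKM and GPT2 at 6.22 and 5.95, above ARG1 and above GPT at 1.01 and 0.960. IGF2 was above IGF1, but both were near the limit of detection. The 2 exceptions were BCAT2, the mitochondrial branched-chain transaminase entered as the liver form, at 7.63 and 6.32 against BCAT1 at 0.0927 and 0.104, and ALB against its fetal relative AFP.

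Markers of bile ducts and liver progenitors were unevenly present. Of 18, 11 (61.1%) reached 1 RPKM, close to the 65.0% of all protein-coding names, with a median of 8.21 RPKM. SPP1, the secreted phosphoprotein osteopontin, led at 259 and 268, followed by the duct keratin KRT19 at 173 and 165. Both exceeded ALB in each library. CD44, a hyaluronan receptor, stood at 37.1 and 43.6, SOX4 at 26.3 and 30.01, and ANPEP and CD24, both cell surface proteins, at 22.6 and 24.9 and at 17.9 and 21.4. SOX9, the factor of duct cells, stood at 7.57 and 9.11 and KRT7 at 9.43 and 6.72. EPCAM, a surface marker used to sort liver progenitors and carcinoma cells, stood at only 0.173 and 0.101 RPKM, and PROM1 (CD133) and THY1, other markers of tumour-initiating cells, at 0.00734 and 0.00684 and at 0.0461 and 0.0515.

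Oncofetal genes ranged from the highest messages to nearly none. Of 24, 15 (62.5%) reached 1 RPKM, a share near that of all protein-coding names, and 4 reached 100 RPKM. Besides AKR1B10 these were H19, an imprinted long non-coding RNA of fetal liver at chr11:1995163-2001470, at 611 and 528, the growth factor midkine (MDK) at 225 and 266 and the chromatin protein HMGA1 at 144 and 128. GOLM1, a Golgi protein measured in serum of patients with liver cancer, stood at 57.5 and 66.8. The 3 members of the IGF2BP family, which bind and stabilise fetal and growth messages, lay within a narrow range, IGF2BP1 at 13.1 and 12.7, IGF2BP2 at 11.4 and 13.4 and IGF2BP3 at 9.57 and 10.03.

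Alpha-fetoprotein, the classical serum marker of liver cancer, was almost absent. AFP stood at 0.436 and 0.297 RPKM, from 26 and 19 reads, with 95% counting intervals of 0.285 to 0.638 and 0.179 to 0.463 RPKM. IGF2, the imprinted neighbour of H19, stood at 0.0611 and 0.106, so the 2 genes of the pair lay at opposite ends of the list. LIN28B had 0 and 1 reads, DLK1 stood at 0.0103 and 0.0192 and SALL4 at 0.530 and 0.476. TERT, the catalytic subunit of telomerase, stood at 0.970 and 1.11 and HMGA2 at 2.16 and 2.25.

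Cancer-testis antigens are germ-cell genes that some tumours switch on. Of 29 with a row, 11 (37.9%) reached 1 RPKM, below the 65.0% of all protein-coding names. The highest, MAGED1 at 45.5 and 50.1 RPKM and MAGED2 at 36 and 40.8, are expressed in many normal tissues, and CASC5, at 7.69 and 7.73, encodes a kinetochore protein of dividing cells. Of the restricted genes, MAGEA3 stood at 19.3 and 17.9, MAGEC2 at 5.05 and 4.50 and MAGEA6 at 2.43 and 2.13, while MAGEA1 stood at 0.0639 and 0.0892 and PRAME at 0.275 and 0.418. MAGEA3 and MAGEA6 are near-identical copies and their separate levels are uncertain, as are those of the GAGE, SPANX, SSX and CTAG1 copies.

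Epithelial genes included very abundant keratins and a partial set of junction proteins. Of 58, 42 (72.4%) reached 1 RPKM, against 65.0% of all protein-coding names, and the median was 4.91 RPKM. The simple-epithelium keratins KRT8, at 538 and 506, and KRT18, at 340.0 and 278, were the highest. KRT20, a keratin of gut and bladder epithelium, followed at 278 and 299 and CDH17, the liver-intestine cadherin, stood at 72.6 and 76. DSP, of desmosomes, stood at 68 and 72.2. The ranges of KRT18 and KRT20 overlapped, so these neighbours are not separated.

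N-cadherin exceeded E-cadherin in both libraries. CDH1, the adhesion molecule of epithelia, stood at 2.16 and 2.82 RPKM and CDH2 at 32.3 and 33.3, although hepatocytes themselves carry both cadherins. The catenins that link cadherins to actin were plentiful, CTNNB1 at 28.6 and 26.3, CTNNA1 at 34.7 and 34.1 and CTNND1 at 44.6 and 45.5. Tight junction genes were uneven: CLDN2 stood at 35.6 and 26.1, TJP1 at 24.5 and 23.6, OCLN at 1.44 and 1.89 and CLDN1 at 0.924 and 0.764. The epithelial splicing factor ESRP1 stood at 0.0112 and 0.0104 and its relative ESRP2 at 1.31 and 1.60, and GRHL2, a guardian factor of epithelia, at 0.00901 and 0.00839.

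Mesenchymal genes were also mixed. Of 49, 33 (67.3%) reached 1 RPKM, close to the share of all protein-coding names, with a median of 1.64 RPKM. Besides FN1, a high level was seen for S100A4, a motility-linked calcium-binding protein, at 556 and 491. Collagen VI chains COL6A1 and COL6A2 stood at 168 and 198 and at 96.6 and 113, and the actin-binding TPM2 at 72.5 and 76.5. The fibrillar collagens of fibroblasts did not share this level, with COL1A1 at 0.0278 and 0.0259, COL1A2 at 0.00489 and 0.0274 and COL3A1 at 0.0953 and 0.118.

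Vimentin, the intermediate filament of mesenchymal cells, stood near the threshold. VIM was at 1.12 and 1.07 RPKM, from 106 and 109 reads, against 538 and 506 for KRT8. Of the repressors of E-cadherin, ZEB1 stood at 5.77 and 5.92, SNAI1 at 3.85 and 3.86, SNAI2 at 1.77 and 1.52 and ZEB2 at 1.25 and 1.44. ACTA2, the smooth muscle actin of activated fibroblasts, stood at 0.0183 and 0.0342 and CDH11 at 0.00408 and 0. High FN1 and CDH2 stood beside low VIM and high keratins in both libraries.

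Most markers of other liver cells were under 1 RPKM, with exceptions in each list. The shares at 1 RPKM were 7.69% (stellate cell and fibroblast), 16.7% (endothelial) and 20% (leukocyte), each below the 65.0% of all protein-coding names. Of the stellate cell and fibroblast markers 1 of 13 reached 1 RPKM, LUM at 1.07 and 1.18, and the whole list summed to 2.22 and 2.63 RPKM. Of the endothelial markers 2 of 12 did, ESAM at 11.7 and 10.8 and PECAM1 at 8.55 and 9.01, and the list summed to 22.1 RPKM in each library, with VWF at 0.0578 and 0.0734 and TIE1 at 0. Of the leukocyte markers 3 of 15 did, and the list summed to 54.8 and 66.7 RPKM, most of it CD68, a lysosomal protein found in many cell types, at 46.4 and 57.7. The other two were CD79A at 4.90 and 5.55 and NKG7 at 1.40 and 1.41. PTPRC (CD45), the surface phosphatase of all leukocytes, had 0 reads in both, allowing up to 0.0196 RPKM in replicate 1. MARCO and CD3D were also at 0.

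Among receptor tyrosine kinases, MET stood apart. Of 50 kinases with a row, 20 (40%) reached 1 RPKM, below the 65.0% of all protein-coding names. No read in either library was found for 5. MET stood at 1735 ± 57.6 RPKM (SD, n = 2), and the next, the ephrin receptor EPHA2, at 30.9 ± 0.129 RPKM (SD, n = 2). The membrane kinase LMTK2 followed at 26.3 and 25.9. ERBB3 and EGFR stood at 17.7 and 22.2 and at 19.8 and 19.96, ahead of FGFR4 at 16 and 18.9 and AXL, the receptor of GAS6, at 15.8 and 17.5. The ranges of ERBB3 and EGFR overlapped, as did those of FGFR4 and AXL, so the order within each pair is not resolved. IGF1R and INSR, the receptors of insulin-like growth factors and insulin, stood at 12.8 and 13.7 and at 10.9 and 12.7. ERBB2 stood at 2.53 and 2.52, FGFR1 at 0.0387 and 0.0561 and the vascular receptor KDR at 0.637 and 0.772.

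MET lies at chr7:116672390-116798386 on the plus strand, and high levels extended to protein-coding neighbours on one side, which were picked out after their values were seen. CAV1, starting 148 kb before MET, was the 9th most abundant protein-coding name, and CAV2, 385 kb before it, stood at 233 and 193 RPKM. TES, a focal adhesion protein 462 kb before MET, stood at 124 and 120.5, and MDFIC, 1750 kb before it, at 89.8 and 87.9. Between these, TFEC, a transcription factor of myeloid cells, stood at 0.240 and 0.330. On the other side CAPZA2, an actin-capping subunit 139 kb beyond the start of MET, stood at 14.7 and 13.5, and ST7, 281 kb beyond it, at 1.18 and 1.14. CAPZA2 and ST7 thus lay far below MET although both start within 281 kb of it. Gene copies were not measured here, and their part in these levels was not tested.

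**Figure D3:**
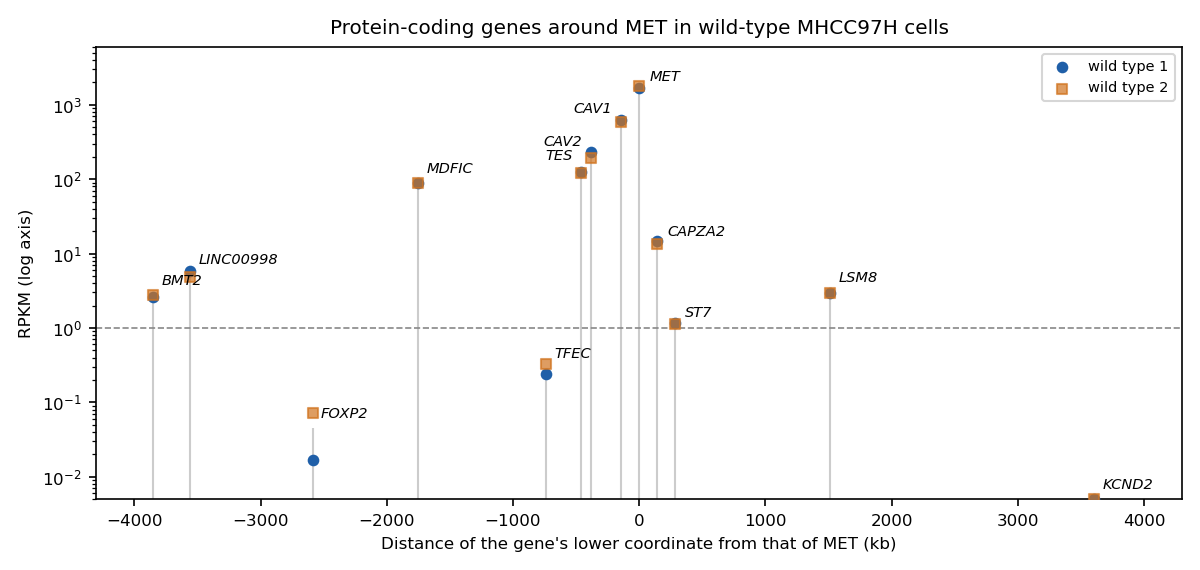
RPKM (log axis) of protein-coding genes within 4000 kb of MET, against the distance of each gene's lower coordinate from that of MET, with circles for wild type 1 and squares for wild type 2. The dashed line is 1 RPKM, and values under 0.005 are drawn at the axis. MET, CAV1, CAV2, TES and MDFIC lie near or above 88 RPKM, and CAPZA2, ST7 and LSM8 beyond MET lie under 15 RPKM.

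Of receptors of cytokines, growth factors and morphogens, 54 of 71 (76.1%) reached 1 RPKM, beside 65.0% of all protein-coding names. The tumour necrosis factor receptor TNFRSF1A led at 105 and 109.6, ahead of the WNT co-receptor LRP5 at 65 and 74.7 and the lymphotoxin receptor LTBR at 58.2 and 61.1. The semaphorin receptor PLXNB2 stood at 51.4 and 60.1, TGFBR2 at 37.4 and 41.5 and the death-domain receptor TNFRSF21 at 34.9 and 38.7. These 6 stood in the same order in both libraries, although LTBR and PLXNB2 nearly met in replicate 2. The death receptor FAS stood at 0.160 and 0.217, whereas TNFRSF10B, a receptor of the ligand TRAIL, stood at 20.4 and 23.3. GHR, the growth hormone receptor of hepatocytes, stood at 0.0165 and 0.0308, and CD40 had 0 reads.

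Uptake and adhesion receptors had the highest median of the 3 receptor lists, at 19.7 RPKM. At 1 RPKM or more were 42 of 55 (76.4%), beside 65.0% of all protein-coding names. The tetraspanin CD63 stood at 190.2 and 231, the lactate transporter chaperone BSG at 125 and 142, ITGB1 at 99.7 and 109 and the heparan sulfate proteoglycan SDC1 at 94.7 and 111. The transferrin receptor TFRC, which brings in iron, stood at 74.6 and 75.9, and ICAM1 at 67.6 and 77.3. The lipoprotein receptors SCARB1 and LRP1 stood at 67.5 and 70.9 and at 58.6 and 69.3. Receptors typical of hepatocytes were low, with ASGR1 and ASGR2, which clear desialylated glycoproteins, at 0.320 and 0.353 and at 0.526 and 0.531, and TFR2 at 0.0647 and 0.0402. The checkpoint ligand CD274 stood at 0.0266 and 0.0124 and CD276 of the same family at 18.4 and 21.1.

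Of secreted growth factors and cytokines, 39 of 80 (48.75%) reached 1 RPKM, below the 65.0% of all protein-coding names, with a median of 0.929 RPKM. MDK, as given above, and HDGF, a nuclear and secreted growth factor, at 235 and 234, were highest, followed by MIF at 128 and 103. TGFB1 stood at 68 and 68.1, the NOTCH ligand JAG1 at 53 and 54 and ANGPTL4, an inhibitor of lipoprotein lipase, at 48.1 and 49.3. Interleukins and chemokines of this list ranged widely. CXCL5 stood at 10.02 and 13.6, CXCL16 at 7.76 and 8.65, IL32 at 4.08 and 4.95 and IL1B at 1.55 and 2.30, against CXCL8 at 0.504 and 0.604 and IL6 at 0.106 and 0.123. FGF19, the gut hormone that some liver cancers amplify, had 2 reads in replicate 1 and 0 in replicate 2.

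Of names listed as other secreted proteins, 65 of 78 (83.3%) reached 1 RPKM, beside 65.0% of all protein-coding names, with a median of 15.9 RPKM. Below FN1 the list was led by the lysosomal protein precursor PSAP at 382 and 433, the disulfide isomerase P4HB at 374 and 435, the protease CTSD at 282 and 306, SPP1 and LGALS3BP at 221 and 271. Message levels do not show how much of each protein left the cell. The 7 binding proteins of insulin-like growth factors in the list were all above 1 RPKM. IGFBP3 led at 113 and 148, followed by IGFBP4 at 88.8 and 109, IGFBP6 at 44 and 52.9 and IGFBP1, a form made by liver, at 33 and 34. IGFBP2 stood at 20.4 and 26.4, IGFBP5 at 17.5 and 24.8 and IGFBP7 at 1.44 and 1.45. Matrix proteases were uneven, with MMP7 at 73.7 and 82.2, MMP14 at 12.9 and 18.3 and MMP9 at 0.0234 and 0.0436. The 3 proteases thus spanned the range from abundant to nearly absent. The WNT inhibitor DKK1 stood at 40.3 and 47.5. The basement membrane laminin chains LAMB1 and LAMC1 stood at 52.2 and 63 and at 48 and 53.7, whereas the collagen IV chains COL4A1 and COL4A2 stood at 0.00667 and 0 and at 0.176 and 0.117.

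Ligands and receptors were paired to see which signalling loops had both messages. Of 36 pairs with both rows, 11 had both at 1 RPKM or more, 15 the receptor alone, 6 the ligand alone and 4 neither. Some genes stand in several pairs, EGFR and VEGFA among them, and 65.0% of all protein-coding names reached 1 RPKM. Whether 11 pairs with both messages exceed what unrelated genes would give was not tested. MET, the most abundant receptor, was in the receptor-only class: its ligand HGF stood at 0.0552 and 0.0858 RPKM, from 9 and 15 reads. FGFR4 was likewise present without FGF19, and its co-receptor KLB stood at 0.242 and 0.301. IGF1R and the clearance receptor IGF2R, at 54.9 and 60.6, were present while IGF1 had 0 reads (up to 0.0203 RPKM in replicate 1) and IGF2 few. AXL and TYRO3 were present with little GAS6, at 0.245 and 0.220. The 4 pairs with neither were FGF19 with KLB, MST1 with MST1R, IL11 with IL11RA and CCL20 with CCR6.

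The pairs with both messages included 3 ligands of EGFR, EREG at 9.64 and 8.66 RPKM, AREG at 5.53 and 4.85 and EGF at 1.63 and 1.74. TGFA, at 0.407 and 0.369, and HBEGF, at 0.543 and 0.742, lay below 1 RPKM. NRG1, at 1.54 and 1.28, stood with ERBB3, TGFB1 with TGFBR2, SPP1 with CD44, JAG1 with NOTCH2 at 12.3 and 13.4, EFNA1, at 15.2 and 23.1, with EPHA2, and LIF, at 2.82 and 3.08, with LIFR at 2.25 and 2.31. The remaining ones were BMP4 with BMPR1A and VEGFA, at 13.8 and 18.7, with NRP1 at 22.3 and 23.5.

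Ligands without their receptor included several that act on other cells. CSF1, the growth factor of macrophages, stood at 36 and 38.3 RPKM and its receptor CSF1R at 0.0848 and 0.128. VEGFA was present while KDR was under 1 RPKM and FLT1 had 0 reads. PDGFB stood at 4.43 and 5.40 and PDGFRB at 0.0459 and 0.0428. GDF15, a stress hormone, stood at 10.7 and 11.7, and its brainstem receptor GFRAL had 0 and 1 reads. WNT5A stood at 14.4 and 12.9, with 0 reads of ROR2 but its relative ROR1 at 8.31 and 7.68.

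**Figure D4:**
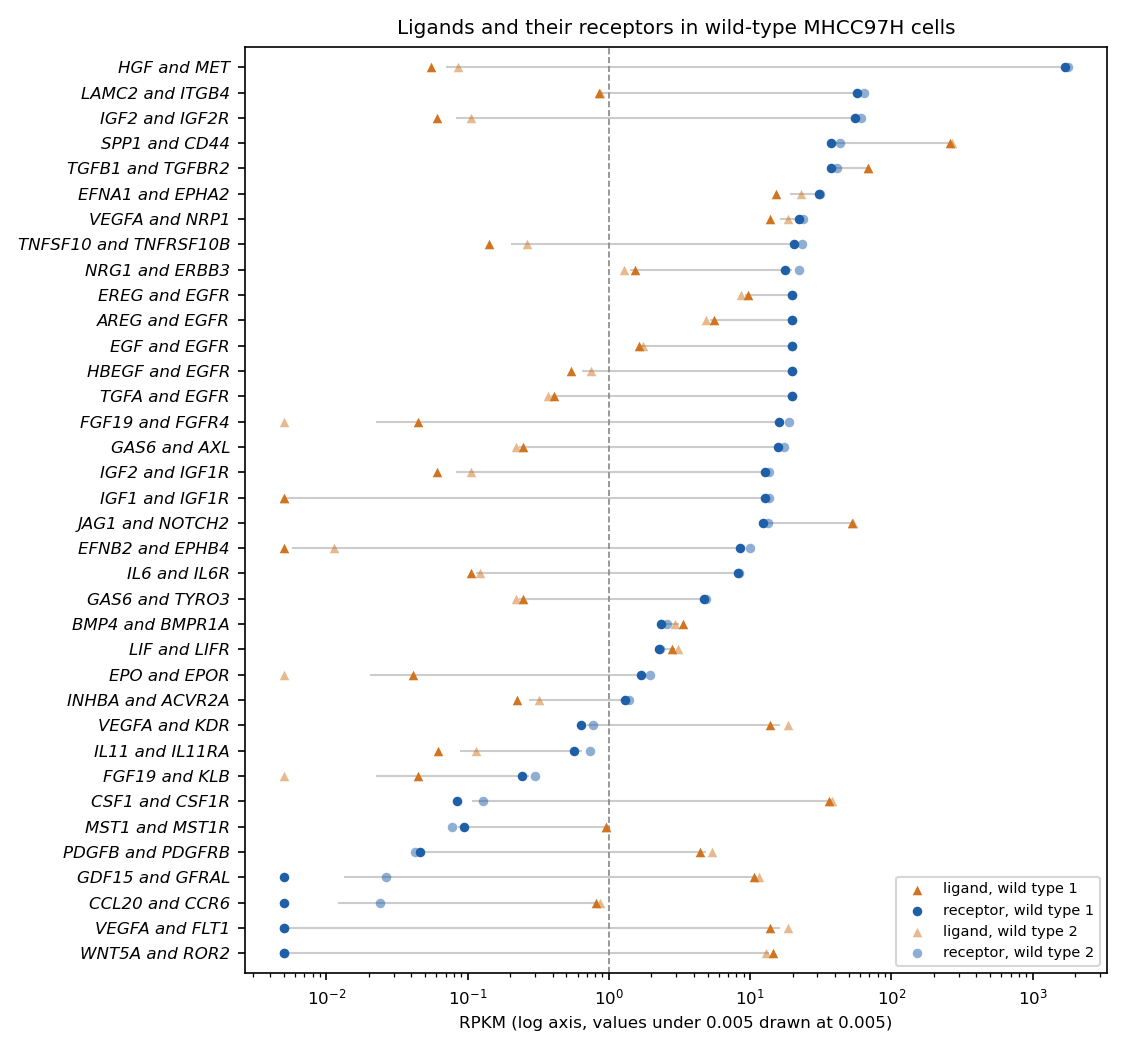
RPKM (log axis) of 36 pairs of a ligand (orange triangles) and a receptor (blue circles). Full colour is wild type 1, pale is wild type 2, and lines join the means. The dashed line is 1 RPKM, and values under 0.005 are drawn at 0.005. HGF and MET, at the top, are the pair farthest apart.

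Genes often altered in liver cancer were present with 1 exception. Of 34, 33 (97.1%) reached 1 RPKM, beside 65.0% of all protein-coding names. RB1, the retinoblastoma tumour suppressor, stood at 0.566 and 0.585. After MET the highest were MYC at 56 and 52.4, the survival gene MCL1 at 45 and 44.8, CCND1 at 36.9 and 32.9, SF3B1 at 29.4 and 29.2 and CTNNB1. CDKN2A stood at 7.53 and 7.13 and NFE2L2 at 13.5 and 12.3, with its inhibitor KEAP1 at 2.32 and 2.07. Around FGF19 on 11q13, 7 of 10 genes (70%) reached 1 RPKM, near the 65.0% of all protein-coding names. They were led by the actin regulator CTTN at 61.5 and 63.3, then CCND1 and MYEOV at 16 and 15.4. SHANK2 stood at 0.0411 and 0.0519 and ANO1 at 0.553 and 0.651, and with FGF19 these were the 3 under 1 RPKM.

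All 20 proliferation genes (100%) reached 1 RPKM, beside 65.0% of all protein-coding names, with a median of 27.3 RPKM. They ranged from CDK1 at 9.0 and 8.04 RPKM to the replication helicase subunit MCM7 at 99.2 and 98.2. MKI67, the common marker of cycling cells, stood at 62.7 and 68.3, TOP2A at 62.5 and 64.9 and the spindle protein TPX2 at 92.1 and 102. CCNB1 stood at 48.1 and 47 and PCNA at 51.5 and 49.

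The 2 libraries lay close for protein-coding genes and less so for short RNAs. Over the 17147 names at a mean of at least 1 RPKM, the log2 difference of replicate 2 from replicate 1, on the log2(RPKM + 0.1) scale, had an SD of 0.40. Log2 values correlated across genes with r = 0.974, a description over genes that share both libraries. The SD was 0.18 for the 11052 protein-coding names and 1.10 for the 1061 small structural RNAs. A gap of over 2-fold was seen for 4 protein-coding names and 230 small structural RNAs. The 4 names, BRD2-IT1, MTRNR2L10, MTRNR2L5 and PPP1R14D, had at most 92 reads in a library. By read number, protein-coding names with 1000 to 10000 reads had an SD of 0.14, against 0.05 from counting alone, and those under 100 reads had 0.32 against 0.28.

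The remaining gap moved with length. Among protein-coding names split into 5 equal bins by exon length, the median log2 difference was −0.08 in the shortest bin and 0.03 in the longest, so short messages were slightly lower in replicate 2. Among names at 5 RPKM or more, the 6 largest gaps in each direction were small RNAs or names without a class. SNORD109A, MIR4521 and MIR6880 were lower in replicate 2 along with RP11-422P24.9, RP11-761N21.2 and RP4-717I23.2. AL138751.1, MIR4701, SNORD59A, SNORD116-14, MIR4665 and MIR3193 were higher, and each of these 12 had 45 reads or fewer in either library.

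Protein-coding names with the largest gaps, picked out after their values were seen, were mostly histone genes in one direction. Of the 6 lower in replicate 2, 5 were histone genes, H2BFS, HIST1H2AI, HIST1H2BI, HIST1H2BK and HIST1H3C, and the other was MTRNR2L5, a nuclear copy of mitochondrial sequence. HIST1H2AI stood at 112 and 65.7 RPKM, HIST1H2BK at 160.3 and 98.4 and HIST1H3C at 76.8 and 47.4. Most replication-dependent histone messages lack a poly(A) tail and have near-identical copies. Higher in replicate 2 were SERPINF1, a secreted inhibitor of vessel growth, at 3.91 and 6.23, EFNA1, ALPK3, CALCOCO1, MMP14 and IGFBP5. With 2 libraries no test of a single gene was made.

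**Figure D5:**
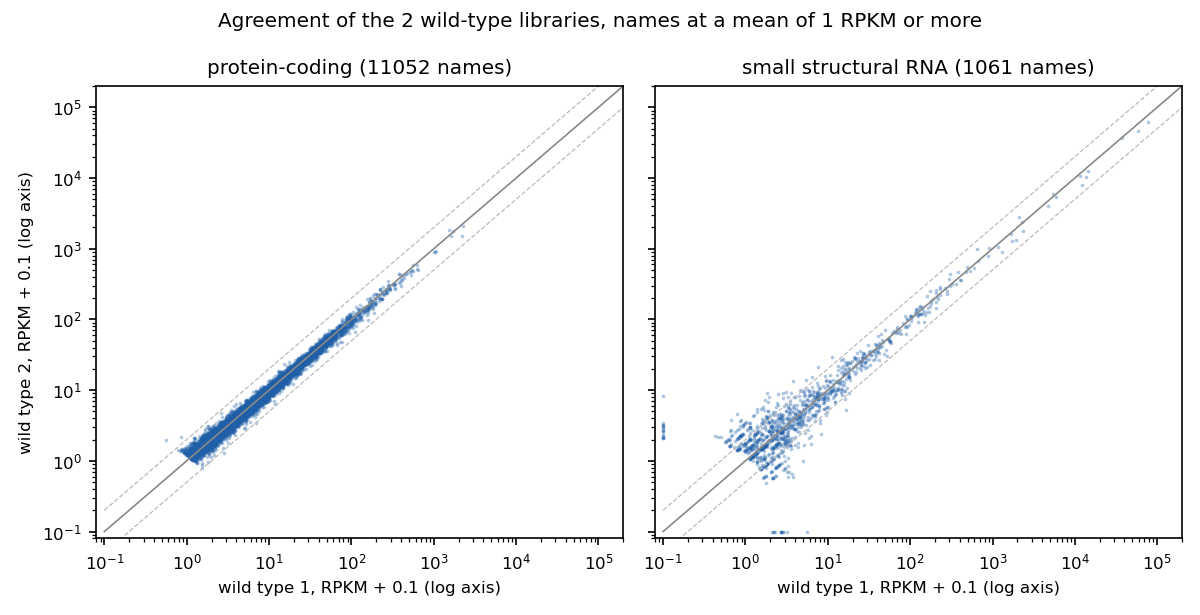
Wild type 2 against wild type 1, both as RPKM + 0.1 on log axes, for protein-coding names (left) and small structural RNAs (right) at a mean of 1 RPKM or more. Each point is a name, the solid line is equality and the dashed lines are 2-fold gaps. The 11052 protein-coding points hug the line, and the 1061 small RNA points scatter around it.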

How the data were processed

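RNA of 2 wild-type libraries was measured after ribosomal RNA depletion with a stranded kit that adds molecular identifiers, per the labels' protocols. The tools listed, per the submitters' processing notes, include StringTie 1.3.2, edgeR 3.12.1, featureCounts with Subread 1.5.1, and Trimmomatic 0.36. How reads were aligned, the strand setting and the use of identifiers are not stated in the sources used here. The notes also name a mouse build, but for 26436 names found once in GENCODE release 29 (GRCh38) the chromosome matched in 99.8% and both ends in 93.5%. The deposited values are RPKM computed by the authors over exon lengths that are deposited beside them.

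RNA classes were taken from GENCODE and, for names missing there, from the RefSeq table. Reads were recovered from the values, and 100% were whole within 0.01 of a read. In simulated tables, 5 of 5 read totals were recovered. Exons of 34.1% of names overlap another name. Of 355 names lying inside another's exons on the same strand, 96.1% had reads and 100% had no more reads than their host, so a read can stand under several names. Antisense partners cannot be told apart.

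Members, lists and alternatives were chosen with earlier results of these data known. The text names the 12 highest rows per class, the 6 highest members and the defining markers of each list, all pairs, and the 6 largest library differences per direction at a mean of 5 RPKM or more. Some genes and sequences are not reported here. Other names were picked after their values were seen. Of 764 listed symbols, 707 had a row, 1 of them under an older symbol. The 57 others are not analysed here. Python 3 code with numpy 2.4.6, pandas 2.3.3 and scipy 1.17.1 was used. Spreads are SDs over 2 libraries, no test was made, and intervals and zero limits (3 reads) cover counting error only. The knockdown libraries were left out. Alternatives were other thresholds, scalings and pseudocounts, a read minimum of 10, an exon minimum of 200 bp and each library alone.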

Additional observations from a re-analysis of the deposited data

How the results depend on the processing

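Of 175 values under alternatives, 159 stayed within the spread or within 1.5 times, and the counts of 15 of the 19 lists did so under every alternative run. Using either library alone changed none of these counts by over 1.5 times. Of the 50 highest names, 36 were among the highest 50 when exons had to span 200 bp. Cancer-testis antigens fell to 6 at 2 RPKM. Stellate cell and fibroblast markers numbered 2 at 0.5 RPKM and 0 at 2 RPKM. Endothelial markers numbered 4 and leukocyte markers 5, both at 0.5 RPKM and on the TPM scale. As shares of summed RPKM, which weighs names per length, classes took 44.6% (small structural), 28.3% (protein-coding), 12.3% (mitochondrial), 8.61% (no class), 3.66% (long non-coding and other) and 2.53% (pseudogenes). The SD between libraries was 0.26 with a pseudocount of 1, 0.51 with 0.01 and 0.75 over all names with a read. No paired analysis was possible because the libraries form a single group, which leaves nothing to pair. Depth limits statements on names at 0 and under 10 reads.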

Other observations

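Genes of the antioxidant response and the pentose phosphate pathway, a list put together after values were seen and so no independent evidence, were abundant throughout. All 28 members reached 10 RPKM and 14 reached 100 RPKM, with a median of 93.5 RPKM, against 2.66 for all protein-coding names. Besides AKR1B10, high rows included the thioredoxin reductase TXNRD1 at 341 and 312 RPKM and PGD at 285 and 278. NQO1, a quinone reductase, stood at 247 and 219.5, ALDH3A1 at 221 and 225 and PTGR1 at 214 and 204. GCLC and GCLM, the subunits of the glutathione-making ligase, stood at 14.7 and 13.8 and at 39.3 and 34. NFE2L2, which encodes the NRF2 factor itself, was not among the high rows, as given in the report.

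Panels of other tissues were also read after values were seen. Of 16 genes of intestinal epithelium with a row, 9 (56.25%) reached 1 RPKM. In this and each panel that follows, the share was below the 65.0% of all protein-coding names. Besides KRT20 and CDH17, LGALS4, a lectin of gut epithelium, stood at 76.7 and 75.5 RPKM, while the intestinal factor CDX2 stood at 1.63 and 1.57, the mucin MUC2 at 0.00862 and 0.00402 and the fatty acid binding protein FABP2 at 0.0220 and 0. Of 9 gastric and pancreatic genes 4 did, led by ANXA10 at 26.1 and 20.5 and TFF1 at 9.81 and 7.85. Lung and kidney genes did so in 2 of 11, squamous genes in 1 of 7 (SOX2 at 4.13 and 4.78) and neural or melanocytic genes in 2 of 7, led by ENO2 at 19.8 and 23.6. Single rows outside the lists were CES1, given with the hepatocyte enzymes, and CYP24A1, which breaks down active vitamin D, at 257 and 250.0.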
